A study of Sus scrofa with 2 samples.

Results

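The miRNAs miR-126, miR-143, miR-145, miR-199 and miR-214, known from blood vessels and connective tissue, were examined in the anterior pituitary of Landrace pigs, which grow large, and of Bama minipigs, which stay small. Members were all probes whose name starts with ssc-miR- and carries one of these 5 numbers, which gave 11 of the 355 probes on the array. They were ssc-miR-126, ssc-miR-126*, ssc-miR-143-3p, ssc-miR-143-5p, ssc-miR-145, ssc-miR-199a, ssc-miR-199a*, ssc-miR-199a-3p, ssc-miR-199b, ssc-miR-199b* and ssc-miR-214. RNA of 3 healthy female piglets per breed, 20 days old, was pooled, and each pool was hybridized to 1 custom array with Cy5 staining. The signals summed to 695596 over the Bama minipig array and to 671754 over the Landrace array. There was no second pool of either breed, so the spread between pigs is unknown, no test between the breeds was possible, and the number of arrays limits the precision of every value given here. All signals are linear intensities, and each ratio is Bama minipigs over Landrace, on the log2 scale where stated.

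A miRNA is cut from a hairpin RNA, and either side of the hairpin, the 5p arm or the 3p arm, can yield a mature strand (the star marks the strand taken to be the minor one). Bases 2 to 8 of the mature strand form the seed, which pairs with target mRNAs. In mammals miR-126 is made in endothelial cells from an intron of EGFL7, miR-143 and miR-145 come from 1 transcript that is abundant in smooth muscle, and miR-199 and miR-214 are typical of fibroblasts and other mesenchymal cells. The anterior pituitary is mainly hormone-secreting epithelium, threaded by a dense bed of capillaries with their pericytes and stromal cells. In RNA from whole tissue, fewer cells of a type and less RNA per cell cannot be told apart.

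Most of these miRNAs gave the lower signal in Bama minipigs. Of the 11, 10 had a mean of the 2 signals of at least 100, the minimum used here for a ratio, and 9 of the 10 had a log2 ratio below 0, beside 90 of all 182 probes above that minimum (49.5%). The median log2 ratio was -0.73 for the 10 and 0.025 for the 182. Of the 10, 3 read nearly the same miR-199 RNA, so counts of members are not counts of independent probes. A signal 2-fold or more lower in Bama minipigs was seen for 3 of the 10, namely ssc-miR-199b, ssc-miR-199a* and ssc-miR-143-3p, and for 6 of the 182 (3.3%). None of the 10 was 2-fold or more higher, beside 24 of the 182 (13.2%). The minimum applied to the mean, so a probe could enter these counts through its brighter array alone. The split of 24 higher and 6 lower probes became 21 higher and 10 lower under 2 scalings. These set both arrays to the median of the 182 probes or to the 75th percentile of all 355.

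These scalings also moved the median of all 182 probes, by -0.17 for the median and -0.19 for the 75th percentile. Relative to the median of all probes, the members' median lay at -0.75 as deposited, a distance that neither of these scalings can change, since each moves every log2 ratio alike. It lay at -0.88 after quantile normalization and at -0.63 after cyclic loess. Among the 128 probes with a mean signal of at least 500, 3 were 2-fold or more lower in Bama minipigs (2.34%), and they were the 3 members named above. Of these, ssc-miR-199b passed that minimum narrowly, with a mean of 502. It did so only through Landrace, with signals of 292 in Bama minipigs and 712 in Landrace. Its place in this count therefore carries no weight. Ranks, which no single factor applied to an array can change, went the same way for the signals as deposited. All 10 members ranked further down among the 355 signals in Bama minipigs than in Landrace, by 1 to 28 places with a median of 19.5 (the 1 place is that of ssc-miR-214), whereas 103 of the 182 probes ranked further down (56.6%), with a median of 2 places. The ranks describe the members and are not a test, since overlapping probes among them read nearly the same RNA.

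**Figure D1:**
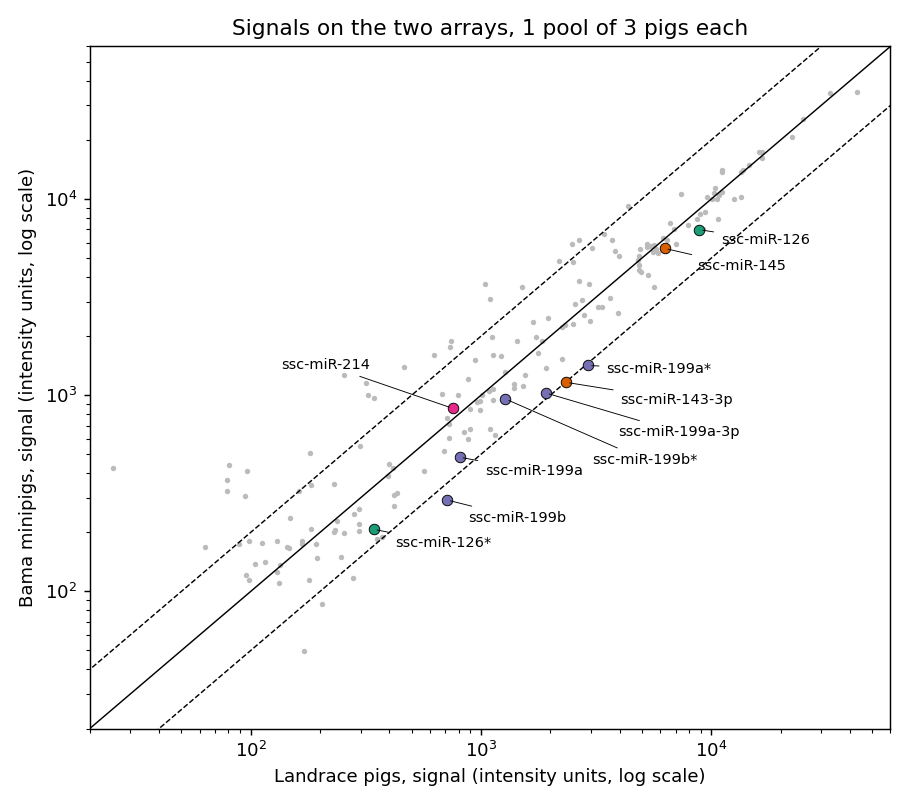
Signal of each probe on the Landrace array (horizontal axis) and the Bama minipig array (vertical axis), in intensity units on log scales. Coloured points are the 10 members with a mean signal of at least 100 (green miR-126, orange miR-143 and miR-145, purple miR-199, pink miR-214), grey points the 172 other such probes, the solid line equal signals and the dashed lines a 2-fold difference.

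The miR-199 family was lower in Bama minipigs with every one of its 5 probes, under every scaling used. On the 5p arm, the Bama minipig signal of ssc-miR-199a was 483 and the Landrace signal 808, a log2 ratio of -0.74. For ssc-miR-199b the signals were 292 and 712, a log2 ratio of -1.28, the second lowest of the 182 probes. Landrace thus gave 1.67 times the Bama minipig signal for ssc-miR-199a and 2.43 times for ssc-miR-199b. The only lower ratio among the 182 was that of ssc-miR-296, whose signals were 49.7 and 169.6. Its mean reached 100 only through Landrace.

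Both 5p strands share the seed CCAGUGU, which no other probe on the array carries, and are shown because they differ at few bases and only ssc-miR-199b passed 2-fold. Capitals mark the seed.
ssc-miR-199a: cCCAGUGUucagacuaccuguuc
ssc-miR-199b: cCCAGUGUuuagacuaucuguu
Counted from 1 at the 5′ end of ssc-miR-199a, ssc-miR-199b differs by C10U and C17U and lacks the last base. It therefore holds 9 G or C bases where ssc-miR-199a holds 12. The log2 ratio of ssc-miR-199b was lower than that of ssc-miR-199a by a difference of -0.54, which ran from -0.37 after quantile normalization to -0.60 after cyclic loess and was -0.47 with an offset of 50 added to all signals. The probes ssc-miR-199a* and ssc-miR-199b*, which read nearly the same RNA, differed by more, 0.62. How much of each strand binds to the probe of the other was not tested.

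On the 3p arm the family was represented by 3 probes for nearly the same RNA. The signal of ssc-miR-199a* was 1417 in Bama minipigs and 2919 in Landrace, a log2 ratio of -1.04. That of ssc-miR-199a-3p was 1027 and 1911, a log2 ratio of -0.90. For ssc-miR-199b* it was 956 and 1277, a log2 ratio of -0.42. All 3 were lower in Bama minipigs, but only ssc-miR-199a* reached 2-fold, and ssc-miR-199a-3p did so after median scaling (-1.07) and after scaling to the 75th percentile (-1.08).

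The 3 sequences are shown because they overlap, with the seed positions in capitals.
ssc-miR-199a*: cAGUAGUCugcacauugguua
ssc-miR-199a-3p: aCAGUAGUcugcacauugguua
ssc-miR-199b*: uACAGUAGucugcacauugguu
They share a run of 20 bases. Relative to ssc-miR-199a*, the 5′ end of ssc-miR-199a-3p lies 1 base further out and that of ssc-miR-199b* 2 bases, so that bases 2 to 8 read AGUAGUC in the first, CAGUAGU in the second and ACAGUAG in the third. The RNA of the 3p arm is the same in this stretch whether it comes from a miR-199a or a miR-199b hairpin, so the probes do not separate the hairpins. Which 5′ ends the strands had in the pituitary was not measured.

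Pairs of overlapping probes were compared over the array. Such probes can bind each other's RNA, so their differences are no scale for gaps between unrelated sequences. Some of the pairs are different miRNAs, so a difference between probes and a difference in RNA cannot be told apart. Between ssc-miR-199a* and ssc-miR-199b* the log2 ratios differed by 0.62, and between ssc-miR-199a-3p and ssc-miR-199b* by 0.48. Over the array, 9 pairs of probes with a mean signal of at least 100 shared 19 or more bases in a row, including the 3 pairs of the miR-199 3p arm. The size of the difference had a median of 0.11 over the 9 pairs and a range from 0.0028 to 0.62. For the 6 pairs outside the miR-199 family the median was 0.051 and the largest difference 0.22, that of ssc-miR-133a-3p and ssc-miR-133b. The miR-199 3p arm thus held the widest gap of the 9 pairs. Among the 17 pairs that shared 16 or more bases the median was also 0.11 and the largest difference 0.83, that of ssc-miR-29b and ssc-miR-29c. These differences are between probes on the same pair of arrays and do not measure the spread between pigs.

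Comparison of the arms gave no common order. From the 5p to the 3p strand, the log2 ratio changed by -0.16 from ssc-miR-199a to ssc-miR-199a-3p and by -0.30 from ssc-miR-199a to ssc-miR-199a*. The first of these turned to 0.0025 after quantile normalization and was -0.33 after cyclic loess, which took the second to -0.55. From ssc-miR-199b to ssc-miR-199b* the change was 0.87, between 0.72 and 0.81 under the alternatives tried. The strands were paired by name, although the 3p probes do not separate the hairpins. The log2 ratios of ssc-miR-199a-3p (-0.90) and ssc-miR-199a* (-1.04) lay nearer to that of ssc-miR-199b (-1.28) than that of ssc-miR-199b* (-0.42) did. The 5 log2 ratios of the family had a mean of -0.88 and ran from -1.28 to -0.42.

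In the RefSeq annotation of Sscrofa11.1, used for names only, the pig has 3 miR-199 genes. MIR199A-1 lies within DNM3, MIR199A-2 within DNM2 and MIR199B within DNM1, genes of the dynamin family of membrane-severing GTPases. MIR214 also lies within DNM3, and no other annotated gene stands between it and MIR199A-1. The probes for ssc-miR-199a bind the product of either miR-199a gene.

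The neighbour of miR-199a, ssc-miR-214, did not show the lower signal in Bama minipigs. Its signal was 858 in Bama minipigs and 752 in Landrace, a log2 ratio of 0.19 that turned to -0.063 after quantile normalization, was 0.0012 after scaling to the 75th percentile and rose to 0.35 after cyclic loess. It held rank 115 in Bama minipigs and 114 in Landrace. Its log2 ratio lay 0.93 above that of ssc-miR-199a and 1.08 above that of ssc-miR-199a-3p, and the second gap became 0.91 after quantile normalization and 1.25 after cyclic loess. The mature strand of miR-214 is shown to compare its composition with the other members.
ssc-miR-214: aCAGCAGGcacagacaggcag
Its share of purines (A or G) was 71.4%, the highest of the 11 members, whose other shares ran from 33.3% to 57.1%. Over the array, the 44 probes with 60% or more purines had a median log2 ratio of 0.37 and the other 138 a median of -0.060, a split chosen after the values were seen. The part of base composition in the value of ssc-miR-214 was not tested. Its seed CAGCAGG was shared by Y-99, an added probe with signals of 1.92 and 1.78, too low for a ratio.

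The pair of miR-143 and miR-145 also went apart. The signal of ssc-miR-143-3p was 1163 in Bama minipigs and 2343 in Landrace, a log2 ratio of -1.01 that became -0.98 with the offset of 50. It ranked 98 in Bama minipigs and 72 in Landrace. The signal of ssc-miR-145 was 5602 in Bama minipigs and 6266 in Landrace, a log2 ratio of -0.16, with ranks of 45 and 34. Both were lower in Bama minipigs under every scaling used, with the log2 ratio of ssc-miR-145 between -0.16 and -0.35. The log2 ratio of ssc-miR-145 lay 0.85 above that of ssc-miR-143-3p, or 0.82 with the offset.

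The genes are adjacent in the annotation used, where MIR143 and MIR145 follow each other within the span of IL17B and no annotated gene lies between them. Their mature strands are unrelated in sequence, with no shared run over 3 bases and different seeds.
ssc-miR-143-3p: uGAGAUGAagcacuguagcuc
ssc-miR-145: gUCCAGUUuucccaggaaucccuu
The other strand of miR-143, ssc-miR-143-5p, gave signals of 2.83 and 7.30 and ranked 289 and 264 of the 355, so no ratio is given. The values analysed here carry no background measurement, and the study's calls of detection were not used. Whether such a signal lay above background was therefore not judged.

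Both strands of miR-126 were lower in Bama minipigs under every scaling used, and neither reached 2-fold. The signal of ssc-miR-126, which is best known for promoting the response of endothelial cells to VEGF, was 6981 in Bama minipigs and 8857 in Landrace. Its log2 ratio was -0.34 and its ranks were 32 and 26. The signals of the star strand, ssc-miR-126*, were 207 and 341, a log2 ratio of -0.72, with ranks of 153 and 135. The log2 ratios of the strands differed by -0.38, by -0.62 after quantile normalization and by -0.26 with the offset of 50. Brightness also varies with the binding of a probe, so the level of one strand is not set against that of the other.
ssc-miR-126: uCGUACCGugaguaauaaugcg
ssc-miR-126*: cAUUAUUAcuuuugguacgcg
The sequences are shown because the strands come from 1 hairpin, within EGFL7 in the annotation used, and yet carry different seeds, CGUACCG in ssc-miR-126 against AUUAUUA in ssc-miR-126*. No other probe on the array carries either seed.

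**Figure D2:**
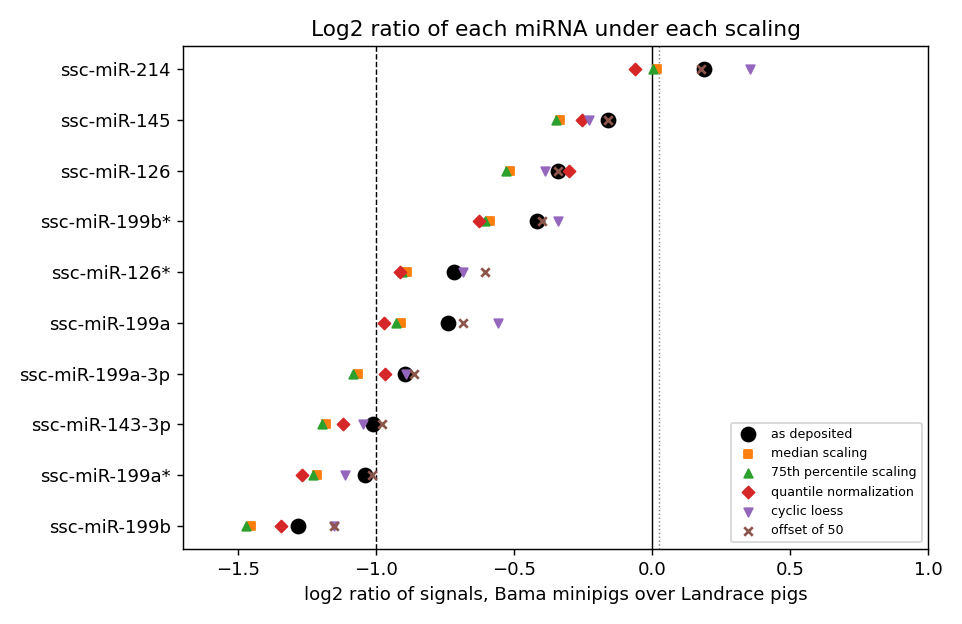
Log2 ratio of signals, Bama minipigs over Landrace (horizontal axis), for the 10 members with a mean signal of at least 100, each a row, as deposited (black circles) and under the scalings and the offset of 50 (other marks). The solid line marks 0, the dashed line a 2-fold lower signal and the dotted line the median of all 182 probes, 0.025.

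A list of 21 other miRNAs often found in vessels and connective tissue did not share the direction of the members. Of the 21, 16 had a mean signal of at least 100, with a median log2 ratio of 0.027, and 7 were lower and 9 higher in Bama minipigs, none by 2-fold. The lowest of them was ssc-miR-22-3p, with 2631 in Bama minipigs and 3942 in Landrace, a log2 ratio of -0.58. Next came ssc-miR-21, a miRNA induced in fibrosis, with 10048 and 12525, a log2 ratio of -0.32. At the other end, ssc-miR-29b, which targets collagen mRNAs, had 5615 and 3032, a log2 ratio of 0.89, and ssc-miR-195 had 1015 and 679, a log2 ratio of 0.58. The strongest signal of the list was that of ssc-miR-29a, with 14050 and 13713. The sum over the list, in which bright probes weigh most here as in the lists below, was 99998 in Bama minipigs and 99708 in Landrace. The signals of ssc-miR-10a, ssc-miR-10b and ssc-miR-140 were below 4 on both arrays.

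Markers of other cells were read on the same arrays, and their part in the values of the members was not tested. Of 6 blood cell miRNAs, 4 (ssc-miR-142-3p, ssc-miR-142-5p, ssc-miR-146a and ssc-miR-155, of white blood cells) had signals under 2 on both arrays. The red cell miRNA ssc-miR-451 had the strongest signal, with 5286 in Bama minipigs and 5841 in Landrace, a log2 ratio of -0.14, ssc-miR-486 had 208 and 182, and the list summed to 5497 and 6026.

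The 8 striated muscle miRNAs summed to 1538 in Bama minipigs and 667 in Landrace, a gap carried by 3 of them, while 4 of the 8 had the lower signal in Bama minipigs. The 3 were ssc-miR-133b, ssc-miR-133a-3p and ssc-miR-1. Each of these means reached 100 only through Bama minipigs. The signals of ssc-miR-133b, the strongest, were 439 and 80.6, those of ssc-miR-133a-3p were 370.4 and 79.2, and those of ssc-miR-1 were 426 and 25.1. Among those with enough signal for a ratio, only ssc-miR-206 was 2-fold or more lower in Bama minipigs, with 117 and 278. The remaining 4 were ssc-miR-499-5p, with 175 and 192, and ssc-miR-133a-5p, ssc-miR-208b and ssc-miR-499-3p, these last 3 with means too low for a ratio.

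Of 9 neural miRNAs, 6 had a mean signal of at least 100, with a median log2 ratio of 0.39, and the list summed to 16859 and 16028. Its strongest signal was that of ssc-miR-129a, with 6157 and 6408. Among those with enough signal for a ratio, ssc-miR-338 (169 and 63.4) alone passed 2-fold, higher in Bama minipigs. Its mean reached 100 only through that breed. The signals of ssc-miR-124a, 66.3 in Bama minipigs and 27.0 in Landrace, had a mean too low for a ratio. The signals of ssc-miR-9-1 and ssc-miR-219 were under 15 on both arrays. All 7 endocrine and epithelial miRNAs had a mean signal of at least 100, with a median log2 ratio of -0.14 and sums of 98636 and 105721. The strongest signal was that of ssc-miR-7, a miRNA of neuroendocrine cells, with 35031 and 42831 (log2 ratio -0.29). The only one past 2-fold was ssc-miR-183 (85.9 and 204), lower in Bama minipigs. Its mean reached 100 only through Landrace.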

How the data were processed

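Per the study's methods, the authors scanned the arrays, subtracted the background and normalized with a LOWESS filter. Each deposited value is an intensity on a linear scale, 1 value per probe and array. Calls of detection and spot values in the study's supplement were not used. Mature sequences were read from the study's probe list, which holds one for all 355 probes.

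From the deposited intensities log2 ratios were taken, with Landrace as the denominator. A ratio was given where the mean of the 2 signals was at least 100, and 2-fold was a rule of size, without a p-value. Alternatives were scaling to the median or the 75th percentile, quantile normalization, cyclic loess with 3 iterations, an offset of 50, no minimum, a minimum of 500, miRBase probes only and averaged overlapping probes. The median was taken over the probes above the minimum of 100, the 75th percentile over all 355. The scalings were tested on simulated data with equal numbers of probes raised on either array, unlike the arrays here. That test does not show how the scalings behave on these data. All members are named. From the other lists, miRNAs past 2-fold and the strongest signal of each are named, with the 2 lowest and 2 highest of the vessel and connective tissue list. The rest were chosen after their values were seen. Members and lists were chosen with earlier results of these data known. Python 3.11.15, numpy 2.4.6, pandas 2.3.3, matplotlib 3.10.9, R 4.3.3 and limma 3.58.1 were used.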

Additional observations from a re-analysis of the deposited data

How the results depend on the processing

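With 1 array per breed, no alternative measures the spread between pigs. The lowest signals were not judged against background, since the deposited values hold none and the study's detection calls were not used. The 10 log2 ratios, each under 5 alternatives, gave 50 values, of which 46 kept their direction and their side of 2-fold. The exceptions were ssc-miR-143-3p with the offset of 50 (-0.98), ssc-miR-199a-3p after both scalings to a single value (-1.07 and -1.08) and ssc-miR-214, which changed sign after quantile normalization (-0.063). The cause was not tested. The 9 differences between arms, paralogs and neighbours were read with the offset and, chosen after seeing the data, after quantile normalization and cyclic loess. Of these 27 values 1 changed sign, ssc-miR-199a-3p minus ssc-miR-199a after quantile normalization (0.0025). The median log2 ratio of the members, -0.73, was -0.90 after median scaling, -0.92 after scaling to the 75th percentile, -0.94 after quantile normalization and -0.62 after cyclic loess, and stayed within 0.1 of the main value with the offset, without the minimum, with the minimum of 500 and with the miR-199 3p probes averaged. The count of members 2-fold or more lower ran from 2 to 4. Over the array, the count of probes 2-fold or more lower, 6, was 10 after median and 75th percentile scaling, 3 with the offset and with the minimum of 500, and 54 without a minimum. The count 2-fold or more higher, 24, was 69 without a minimum, 15 with the minimum of 500 and 15 over miRBase probes only. Both of these last sets hold fewer probes.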

Other observations

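The probes outside the members whose log2 ratio came closest to the members' median of -0.73 were Y-13 (-0.71), ssc-miR-455 (-0.69), ssc-miR-1285 (-0.67), ssc-miR-361-3p (-0.66) and ssc-miR-2320 (-0.61). Likeness here is the size of 1 ratio over 2 arrays. The signals of ssc-miR-455, which in mammals lies within the collagen gene COL27A1, were 674 in Bama minipigs and 1090 in Landrace, and those of ssc-miR-1285 were 3545 and 5651. The other 3 were dimmer, with signals of 150.4 and 245 for Y-13, 114 and 179 for ssc-miR-361-3p, and 273 and 417 for ssc-miR-2320.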
